A study of Rattus norvegicus with 421 samples.

Results

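Rats received the polycyclic aromatic hydrocarbon 3-methylcholanthrene (3-MC) at 25 mg/kg by daily gavage, and their livers were profiled after 1, 3, 7 and 14 days. The arrays were chosen by their titles, which left 12 arrays of treated rats, 3 per day, and 12 arrays of rats given the corn oil vehicle for the same number of days (labelled CO_1M, 3 per day), of 421 arrays in the series. All were male Wistar Hanover rats, 8 to 10 weeks old when they were assigned to groups. Each array came from the liver of 1 rat, and the rats put on arrays were chosen from larger dose groups on histopathology. The CO_1M rats served as controls for no other compound, so the changes given here share no control arrays with the other compounds.

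Polycyclic aromatic hydrocarbons such as 3-MC bind the aryl hydrocarbon receptor (AHR), a transcription factor held in the cytoplasm by chaperones until it is bound. The receptor then enters the nucleus, pairs with ARNT and occupies short DNA elements, the dioxin response elements, near genes of foreign-compound metabolism. Cytochromes P450 of family 1 are its best known targets in liver, together with enzymes that reduce or conjugate the oxidized products, several of which are also targets of the oxidative stress factor NRF2.

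The values are log2 signals of Affymetrix probe sets, and a change is the mean of the 3-MC arrays minus the mean of the vehicle arrays of the same day, on the log2 scale, with the standard error (SE) of the fit. Calls required that limma's p, adjusted by Benjamini-Hochberg over all probe sets, be below 0.05 and that the groups differ by 1.5-fold or more. Each such p measures a difference against the spread between arrays of separate animals. The number called rose with the days of dosing. At day 1, 59 of 15866 probe sets were called (0.372%), at day 3 76 (0.479%), at day 7 179 (1.13%) and at day 14 262 (1.65%). The balance of higher and lower probe sets shifted as well, with 40 higher and 19 lower at day 1, 62 and 14 at day 3, 111 and 68 at day 7, and 126 and 136 at day 14. Leaving out 1 array at a time gave 39 to 80 calls at day 1, 65 to 86 at day 3, 131 to 198 at day 7 and 208 to 308 at day 14, so the ranges of the first days and of the last day did not overlap. The lowest count at day 1 came without the second vehicle array, the lowest at day 7 without 3-MC array number 3. The array medians of the 24 arrays lay between 7.406 and 7.4826. Single arrays stood apart on inflammation genes, above all the second 3-MC array of day 1, where the acute phase gene Lcn2 read 13.7, against 7.73 and 7.88 on the other 3-MC arrays and 8.38, 8.37 and 7.57 on the vehicle arrays. The first vehicle array of day 14 stood apart in the acute phase gene A2m, at 11.58, against 7.12, 7.55 and 6.88 on the 3-MC arrays and 8.59 and 7.93 on the other vehicle arrays. In whole liver, a change in the RNA of a cell type and a change in the number of those cells cannot be told apart.

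**Figure D1:**
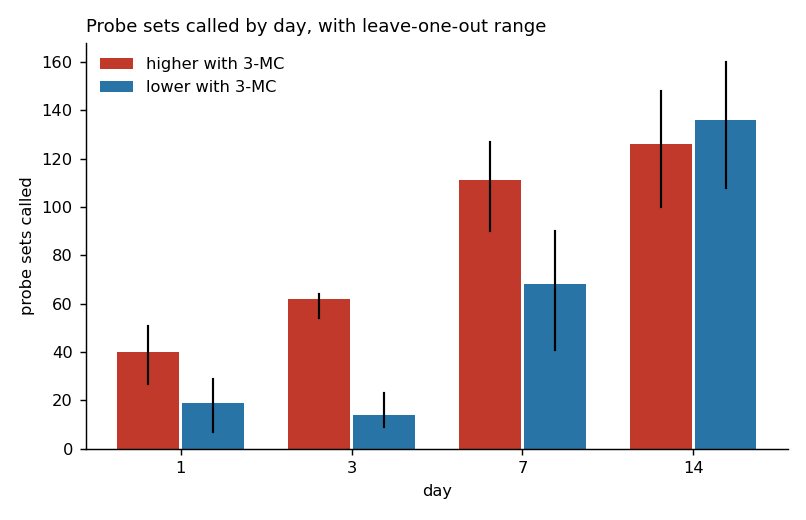
Number of probe sets called higher (red) or lower (blue) with 3-MC than with vehicle, by day of dosing. Black lines give the range over fits that leave out 1 array, and the lower calls rise to 136 at day 14, against 14 at day 3.

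All 6 measured genes of the classical AHR battery, of 10 symbols on the list, were higher with 3-MC on every day; from the 24 arrays alone 5 of 6 were called at days 1 and 3 (Tiparp at day 1 had an adjusted p of 0.287 in limma) and 6 at days 7 and 14. Leaving out 1 array gave 5 or 6 at days 1, 3 and 7. Ugt1a6, Ugt1a7c, Gsta2 and Ahrr, also on the list, had no probe set with 1 symbol and were not measured. Of 10411 genes tested, 26 (0.25%) were higher at day 1, 47 (0.451%) at day 3, 85 (0.816%) at day 7 and 91 (0.874%) at day 14. The median change of the battery was 2.59 at day 1, 3.36 at day 3, 4.03 at day 7 and 4.38 at day 14, where the median over all genes was 0.01, -0.00, -0.01 and -0.00. The mean log2 level of the 6 genes lay between 11.25 and 13.09 on the 3-MC arrays and between 8.67 and 9.26 on the vehicle arrays, with no overlap. For comparison, genes whose 3 treated arrays all lay above the 3 vehicle arrays made up 9.2%, 7.39%, 9.77% and 7.62% of all genes on the 4 days, and genes whose treated arrays all lay below 8.44%, 5.67%, 9.36% and 10.2%.

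Cyp1a1, the cytochrome P450 most widely used as a marker of AHR activity, was already near the top of the scale after 1 day. At day 1 it read 14.05, 14.01 and 12.88 on the 3-MC arrays, against 7.34, 7.21 and 6.77 on the vehicle arrays. At day 14 it read 14.01, 13.97 and 14.11 with 3-MC, against 7.77, 6.94 and 7.05 with vehicle. The groups were far apart on every day, and 10 of the 12 treated arrays lay within a narrow band near 14. The change was 6.54 ± 0.45 at day 1 (SE, 3 arrays each, adjusted p = 1.8e-32), 7.03 at day 3, 6.22 at day 7 and 6.78 at day 14, or 93.1-fold, 131-fold, 74.4-fold and 110-fold. A level of 14 was near the top of the scale, since 23 probe sets had a mean above it on these arrays and the highest value was 15.16, so how much room these levels leave for a further rise was not tested. Cyp1a2, a P450 that liver expresses without any inducer, started much higher. It lay between 14.31 and 14.52 on the 12 treated arrays and between 12.81 and 13.74 on the 12 vehicle arrays, which gave changes of 1.05, 1.19, 0.91 and 1.00 at days 1, 3, 7 and 14. Its call was lost at day 1 without the second 3-MC or the third vehicle array, at day 3 without the second vehicle array and at day 7 without any of 5 arrays, the exception being the second vehicle array, and was kept at day 14.

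Cyp1b1, a P450 of the same family that metabolizes polycyclic hydrocarbons and oestrogens, was slower. It read 11.55, 10.89 and 9.63 on the 3-MC arrays of day 1, against 7.36, 7.22 and 7.31 with vehicle. At day 3 it read 13.1, 13.19 and 12.46 with 3-MC, and at day 14 13.68, 13.68 and 13.86, against 7.37, 7.48 and 7.46 with vehicle at day 14. The treated arrays of day 1 all lay below those of day 3. The change was 3.40 ± 0.10 at day 1, 5.51 at day 3, 6.13 at day 7 and 6.30 at day 14, which was 78.8-fold. The SE comes from the spread over all 421 arrays, most of which hold no inducer of this gene, and is therefore smaller than the spread of the 3 treated arrays of day 1 would give. Aldh3a1, an aldehyde dehydrogenase that the receptor induces in rat liver, followed the same course. At day 1 it read 8.08, 8.64 and 9.42 with 3-MC, against 6.05, 5.87 and 5.99 with vehicle. At day 14 it read 11.7, 12.55 and 12.87 with 3-MC, against 6.02, 6.01 and 6.07 with vehicle. The change grew on each later day, with 2.74 ± 0.16 at day 1, 4.59 at day 3, 5.63 at day 7 and 6.34 at day 14, which was 81.0-fold.

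**Figure D2:**
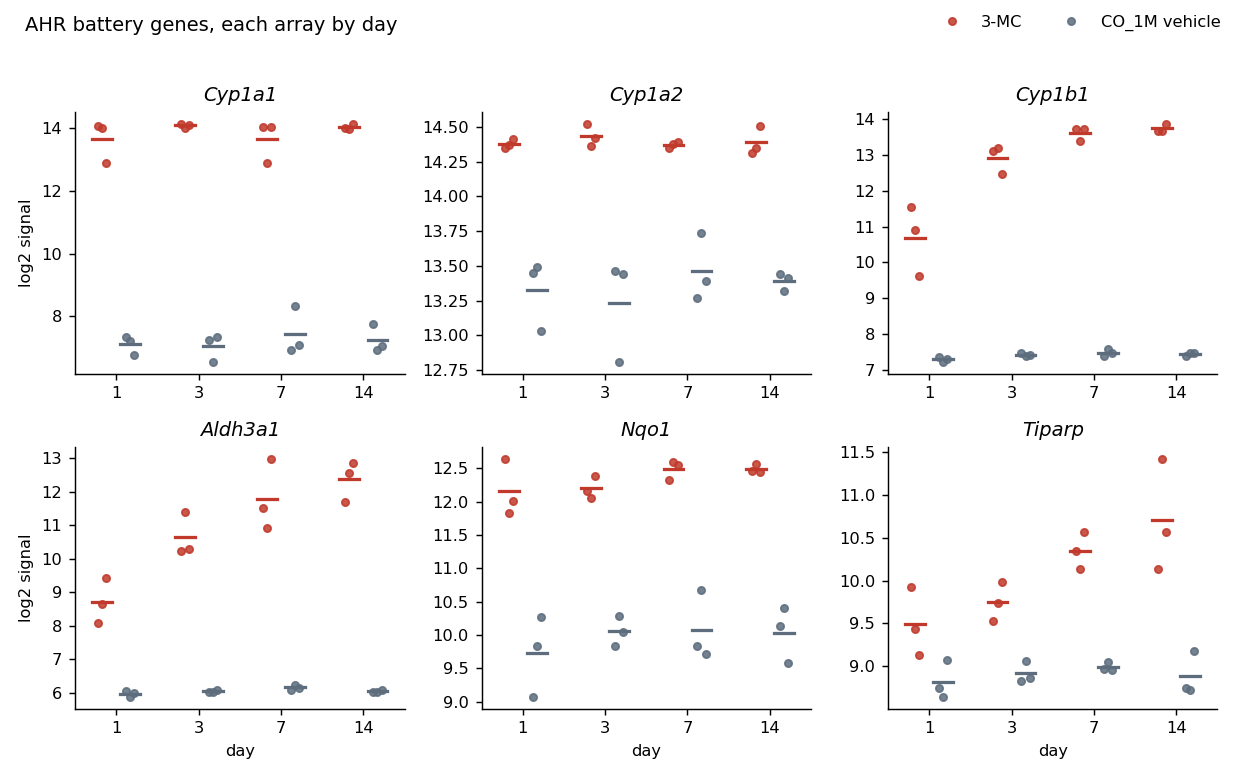
Log2 signal of the 6 measured AHR battery genes on each array by day, 3-MC in red and CO_1M vehicle in grey, with a bar at each mean of 3. Cyp1a1 lies near 14 on most treated arrays at all days, while Cyp1b1, Aldh3a1 and Tiparp climb with time; the vertical axes differ between genes.

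Nqo1, a quinone reductase under both AHR and NRF2, lay between 11.83 and 12.64 on the 3-MC arrays and between 9.07 and 10.67 on the vehicle arrays. Its change was 2.43 ± 0.50 at day 1, 2.14 at day 3, 2.42 at day 7 and 2.45 at day 14, and the difference between day 14 and day 1 was not called. The call was lost at day 1 without the first vehicle array and at day 3 without the third 3-MC array. Tiparp, an ADP-ribosyltransferase that represses the receptor in a feedback loop, rose less but for longer. It read 9.92, 9.43 and 9.13 with 3-MC at day 1, against 8.74, 8.64 and 9.07 with vehicle, and 10.13, 11.42 and 10.57 with 3-MC at day 14, against 8.74, 8.72 and 9.18 with vehicle. The change was 0.67 ± 0.15 at day 1 (adjusted p = 0.0039), 0.83 at day 3, 1.36 at day 7 and 1.83 at day 14. At day 1 the call was lost without the first 3-MC or the second vehicle array.

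The start regions, where available, show which of these genes hold the core letters of the receptor's element close to the start of transcription. No start region was available for Cyp1a1 and Aldh3a1, which were therefore not searched. Windows of 300 bases, 250 before and 50 after the annotated start, were taken from RefSeq on the rat assembly GRCr8, and GCGTG was searched on both strands, so that CACGC marks a match on the opposite strand. 4 genes with a match and Scn4b, the gene with the largest late minus early difference, without one, are shown 5′ to 3′ along the gene, with matches in capitals.
Cyp1b1 (chr6:21094315-21094614, plus strand): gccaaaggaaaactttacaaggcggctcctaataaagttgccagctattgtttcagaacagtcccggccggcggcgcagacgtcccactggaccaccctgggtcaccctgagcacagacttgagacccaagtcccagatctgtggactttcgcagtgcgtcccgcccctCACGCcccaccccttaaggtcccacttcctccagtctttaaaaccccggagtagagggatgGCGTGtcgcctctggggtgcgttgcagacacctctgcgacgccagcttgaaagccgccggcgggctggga
Nqo1 (chr19:52220218-52220517, minus strand): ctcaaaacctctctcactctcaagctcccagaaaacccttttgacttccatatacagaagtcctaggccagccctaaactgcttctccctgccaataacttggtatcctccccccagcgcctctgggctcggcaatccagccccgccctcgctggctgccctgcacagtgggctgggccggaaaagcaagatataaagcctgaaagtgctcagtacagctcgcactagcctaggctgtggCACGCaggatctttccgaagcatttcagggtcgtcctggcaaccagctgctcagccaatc
Tiparp (chr2:152063519-152063818, plus strand): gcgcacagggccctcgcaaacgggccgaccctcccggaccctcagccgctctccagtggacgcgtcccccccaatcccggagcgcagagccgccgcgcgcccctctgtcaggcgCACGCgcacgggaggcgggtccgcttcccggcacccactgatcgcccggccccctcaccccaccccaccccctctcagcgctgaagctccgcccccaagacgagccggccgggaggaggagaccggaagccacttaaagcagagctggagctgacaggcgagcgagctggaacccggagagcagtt
Exoc3 (chr1:30919625-30919924, plus strand): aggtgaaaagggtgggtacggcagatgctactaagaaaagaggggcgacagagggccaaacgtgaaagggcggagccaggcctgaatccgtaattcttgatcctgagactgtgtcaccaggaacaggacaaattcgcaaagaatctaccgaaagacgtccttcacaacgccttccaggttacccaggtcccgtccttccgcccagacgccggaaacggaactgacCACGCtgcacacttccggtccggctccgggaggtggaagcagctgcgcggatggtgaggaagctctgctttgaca
Scn4b (chr8:54343623-54343922, plus strand): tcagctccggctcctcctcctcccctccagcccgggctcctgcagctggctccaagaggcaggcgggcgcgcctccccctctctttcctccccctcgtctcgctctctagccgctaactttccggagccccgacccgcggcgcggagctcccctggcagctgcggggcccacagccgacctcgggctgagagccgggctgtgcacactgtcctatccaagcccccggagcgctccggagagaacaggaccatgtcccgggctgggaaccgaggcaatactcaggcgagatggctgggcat
In Cyp1b1 the 2 matches began 81 and 20 bases before the start, in Nqo1 10, in Tiparp 136 and in Exoc3 25 bases before it. The window of Cyp1a2 also held no match. These letters are common: 29.7% of 33469 windows and 46.9% of the 8630 windows of genes measured here held them, and the longer form TNGCGTG stood in 4.89% and 7.46%. Of the 19 genes higher on all 4 days, 13 had a window, of which 5 (38.5%) held GCGTG and 2 (15.4%) the longer form. The share was 51.5% for 103 windows of genes higher on at least 1 day and 46.2% for 91 windows of genes lower on at least 1 day, close to that of all measured genes. A match is a description of the sequence and not a binding site.

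None of the 10 measured genes of AHR signalling, which cover the receptor and its partners, was called on any day. Over all genes at most 0.874% were called in 1 direction on a day, so few calls would be met in any 10 genes. The median change of the list lay between -0.06 and -0.01. At day 7 its mean level was 8.559, 8.643 and 8.622 with 3-MC, all below the 8.686, 8.68 and 8.66 with vehicle. On the other days the groups overlapped in this mean level. Ahr itself read 7.39, 7.29 and 7.46 with 3-MC at day 1, against 7.5, 7.43 and 7.36 with vehicle, and 7.75, 7.29 and 7.54 with 3-MC at day 14, against 7.43, 7.5 and 7.37 with vehicle. The groups overlapped on both days. Arnt, its DNA-binding partner, had a change of 0.07, -0.07, -0.23 and -0.01 on the 4 days.

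19 genes were called higher on all 4 days. Besides the battery, they were Exoc3, Selenbp1, Nfe2l2, Rnd2, Enpp2, Pkdcc, Glrx, Prxl2c, Ube4b, Ceacam1, Entpd5, Csk and Eml4. Nfe2l2, which encodes NRF2, read 11.27, 10.76 and 10.98 with 3-MC at day 1, against 9.98, 10.4 and 10.05 with vehicle, and 11.41, 11.55 and 11.67 with 3-MC at day 14, against 10.21, 10.11 and 9.65 with vehicle. No treated array overlapped the vehicle arrays, and the change was 0.86 at day 1, 1.23 at day 3, 1.42 at day 7 and 1.55 at day 14. Selenbp1, a selenium-binding protein with methanethiol oxidase activity, had changes of 0.75, 1.22, 1.17 and 1.82. Glrx, a glutaredoxin that reduces mixed disulfides, was among the steadiest, with 10.95, 11.07 and 11.05 on the 3-MC arrays of day 1, against 10.37, 10.06 and 10.28 on the vehicle arrays, and changes of 0.79, 1.31, 1.20 and 1.17. Enpp2, the secreted lysophospholipase D autotaxin, had changes of 0.74, 1.39, 1.06 and 0.96, and Pkdcc, a secreted protein kinase, 0.84, 1.32, 1.01 and 1.34. Prxl2c, of the peroxiredoxin-like family, had changes of 0.95, 1.19, 1.28 and 1.30. Exoc3, Selenbp1 and Nfe2l2 also stood on a list of 18 other measured genes known to respond to dioxin in liver, of which no other gene was higher at days 1, 3 and 7 and Cyp2a1 was added at day 14, while Inmt on all days and Fmo1 at days 7 and 14 were lower. The median of that list lay between -0.01 and 0.05. Of 41 genes called at day 1, 8 were called in every fit that left out 1 array, namely Cyp1a1, Cyp1b1, Aldh3a1, Akr1c1, Glrx, Prxl2c, Csk and Ube4b; the same held for 33 of 59 genes at day 3, 73 of 140 at day 7 and 101 of 182 at day 14. Of the genes with values here, Nfe2l2 lost its call of day 1 without the first 3-MC or the first or the third vehicle array, Selenbp1 without the first 3-MC or the first vehicle array, Enpp2 without the third 3-MC or any vehicle array, and Pkdcc without the first or the third 3-MC or the first vehicle array.

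Early and late genes were separated by the mean change at days 7 and 14 minus the mean change at days 1 and 3, and 23 probe sets passed the test of this difference (0.145%), 19 higher and 4 lower. In genes these were 11 higher (0.106%) and 3 lower (0.0288%), all 14 with a larger change at the late days. No gene was called with a larger change at the early days. Genes called on at least 1 day numbered 242, of which 122 were higher and 120 lower, and none was higher on one day and lower on another. Of the 26 genes higher at day 1, 23 (88.5%) were also higher at day 14, where they made up 25.3% of the 91 higher genes. Of those 91 genes, 87 had a change of the same sign at day 1. Of the 15 genes lower at day 1, 10 (66.7%) were also lower at day 14, where they made up 11% of the 91 lower genes, and 81 of those 91 had the same sign at day 1. Genes lower at day 14 alone numbered 57, and genes higher at day 14 alone 27.

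Scn4b, a beta subunit of voltage-gated sodium channels, was the clearest late gene. It read 6.47, 6.73 and 6.59 with 3-MC at day 1, against 6.56, 6.46 and 6.63 with vehicle, a change of 0.05 ± 0.08 (adjusted p = 0.98). At day 3 it read 7.3, 7.87 and 7.51 with 3-MC and at day 7 9.15, 9.3 and 9.06. At day 14 it read 10.58, 10.6 and 10.22 with 3-MC, against 6.52, 6.73 and 6.64 with vehicle. The vehicle arrays stayed between 6.42 and 6.73 over the 4 days while each later day's treated arrays lay above all those of the day before. The change was 1.02 at day 3, 2.59 at day 7 and 3.83 at day 14, which was 14.3-fold, and each step between neighbouring days passed the test, by 0.97, 1.58 and 1.24. Exoc3, a subunit of the exocyst complex that tethers secretory vesicles, had changes of 0.63 ± 0.08, 1.43, 2.34 and 2.71. It was measured by 3 probe sets that were all called higher on all 4 days, the other two with changes of 3.40 and 3.42 at day 14, and the call of day 1 was lost without the first 3-MC array. Tmem150c, a membrane protein linked to mechanically gated currents, had changes of 0.35, 1.22, 2.18 and 2.09.

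**Figure D3:**
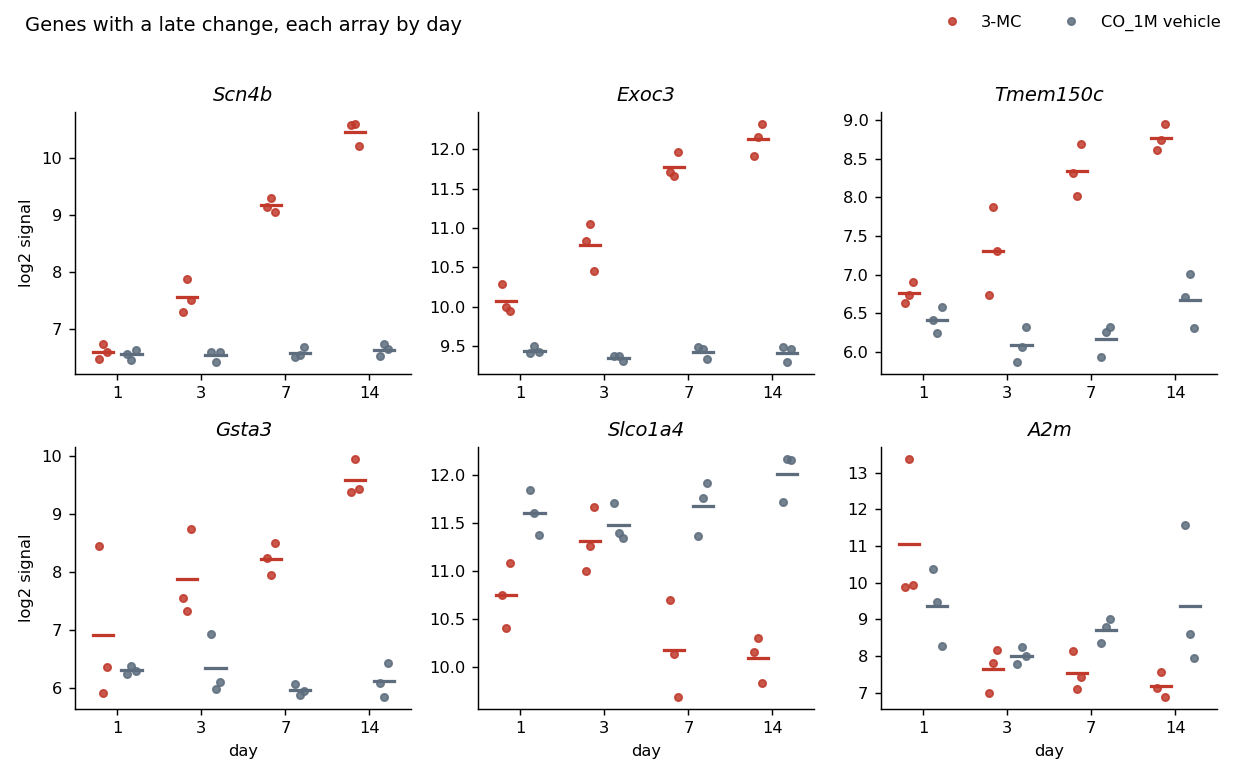
Log2 signal on each array by day for 6 genes with a late change, 3-MC in red and CO_1M vehicle in grey, with a bar at each mean of 3. Scn4b reads 10.58, 10.6 and 10.22 with 3-MC at day 14, against 6.52, 6.73 and 6.64 with vehicle, and the first vehicle array of A2m at day 14 stands at 11.58; the vertical axes differ.

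Day 14 minus day 1, the widest interval, was called for 51 probe sets (0.321%), which stood for 20 genes with a more positive change at day 14 (0.192%) and 20 with a more negative one (0.192%). Without the second 3-MC array of day 1 and the first vehicle array of day 14 it was called for 16 probe sets, none of them with a more negative change. It was 3.79 for Scn4b, 3.59 for Aldh3a1, 2.90 for Cyp1b1 and 2.08 for Exoc3. The late minus early difference was 2.68 ± 0.08 for Scn4b, 2.32 ± 0.16 for Aldh3a1, 1.77 ± 0.10 for Cyp1b1, 1.5 ± 0.08 for Exoc3, 1.35 ± 0.23 for Tmem150c and -1.19 ± 0.22 for Slco1a4. These 6 kept the call when only the 24 arrays were fitted, with adjusted p between 1.35e-11 for Scn4b and 0.0489 for Slco1a4, and in every fit that left out 1 array. Slco1a4 is a bile salt and organic anion transporter of the sinusoidal membrane, and its values are given with the lower genes. Tiparp (0.84) was called in every fit that left out 1 array but not from the 24 arrays alone (adjusted p = 0.479). Reg3a, a secreted lectin of the regenerating family, read 5.55, 6.53 and 6.7 with 3-MC at day 14, against 5.13, 5.1 and 5.16 with vehicle, a change of 1.13, where the change at day 1 was 0.21. Day 14 minus day 7 was called for 4 probe sets (0.0252%), which stood for Scn4b and Reg3a (0.75). Day 3 minus day 1 was called for 9 probe sets (0.0567%), among them those of Cyp1b1 (2.11) and Aldh3a1 (1.84), and day 7 minus day 3 for 11 (0.0693%), among them those of Aldh3a1 (1.05), Exoc3 (0.92), Cyp1b1 (0.63) and Slco1a4 (-1.33). From the 24 arrays alone no probe set was called for day 3 minus day 1 in limma, where 628 had an unadjusted p under 0.05, and 1 was called for day 7 minus day 3.

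Of the 26 measured NRF2 targets, 2 were higher and 1 lower at day 1, 2 higher at day 3, 4 higher and 1 lower at day 7, and 7 higher and 1 lower at day 14, with medians of 0.09, 0.27, 0.23 and 0.29. None was called for late minus early and 1, Gsta3, for day 14 minus day 1. The 7 at day 14 were Nqo1, Srxn1, Gsta3, Gstm4, Akr7a3, Pgd and Me1, and without the second 3-MC array of day 14 they were 4. Srxn1, Gstm4 and Akr7a3 were lost without that array, and each without at least 1 vehicle array too. Gsta3, an alpha class glutathione transferase, read 8.46, 5.92 and 6.36 with 3-MC at day 1, against 6.25, 6.38 and 6.3 with vehicle. At day 14 it read 9.39, 9.95 and 9.43 with 3-MC, against 6.09, 5.85 and 6.43 with vehicle. The groups overlapped at day 1 and were apart at days 3, 7 and 14, with changes of 0.60, 1.54, 2.25 and 3.47, of which the last 2 were called. Alpha class transferases have near-identical copies, and probe sets of one can bind RNA of another. Me1, malic enzyme, and Pgd, of the pentose phosphate pathway, which both supply NADPH, had changes of 1.45 and 0.69 at day 14. Gclc, of glutathione synthesis, and Hmox1, haem oxygenase, were not called on any day, with changes of -0.37 and 0.07 at day 14. Ptgr1, a reductase of prostaglandins and lipid aldehydes, ran the other way, with 9.0, 8.97 and 9.14 on the 3-MC arrays of day 14, against 10.24, 10.34 and 10.4 on the vehicle arrays, and changes of -1.06, -0.44, -0.79 and -1.29. Its call was lost at day 1 without the second 3-MC array and at day 7 without any of 4 arrays.

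Other genes higher on several days were Slc17a3, a kidney and liver transporter of organic anions and urate, with changes of 0.68, 1.5, 1.38 and 1.28, and Slc17a1, of the same transporter family, with 0.50, 1.14, 1.16 and 1.07. Kyat1, a kynurenine aminotransferase that also cleaves cysteine conjugates, had changes of 0.55, 0.72, 1.23 and 1.19. Cavin3, of the protein coat of caveolae, had 11.06, 11.83 and 11.06 on the 3-MC arrays of day 14, against 9.03, 9.08 and 9.73 on the vehicle arrays, with changes of 1.68 at day 7 and 2.03 at day 14. Retsat, which saturates retinol, was called at day 7 with a change of 2.26, reading 13.72, 13.28 and 13.68 with 3-MC, against 10.7, 12.34 and 10.85 with vehicle. At day 14 it read 13.38, 13.45 and 13.63 with 3-MC, against 12.6, 12.45 and 12.75 with vehicle, and its change of 0.89 was not called.

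The genes called lower numbered 15 (0.144%) at day 1, 12 (0.115%) at day 3, 55 (0.528%) at day 7 and 91 (0.874%) at day 14. Only Inmt and Prodh were called lower on all 4 days. Inmt, an indolethylamine N-methyltransferase, read 10.13, 7.44 and 9.21 with 3-MC at day 1, against 11.18, 11.29 and 10.8 with vehicle. At day 7 it read 8.71, 7.76 and 7.38 with 3-MC, against 11.58, 10.73 and 11.27 with vehicle. At day 14 it read 8.0, 8.2 and 8.68 with 3-MC, against 9.53, 11.12 and 11.31 with vehicle. No treated array overlapped the vehicle arrays of its day, and the change was -2.16 ± 0.51, -2.52, -3.25 and -2.36. The call of day 1 was lost without the second 3-MC array or without the first or second vehicle array. Prodh, the first enzyme of proline breakdown, had changes of -0.71, -0.73, -0.86 and -0.69, while another probe set of the gene had 0.07, -0.16, 0.01 and 0.09. The call of Prodh at day 3 was lost in 4 of 6 fits that left out 1 array. Among 48 called genes with more than 1 probe set, 8 had another probe set of opposite sign on the day of the largest called change.

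**Figure D4:**
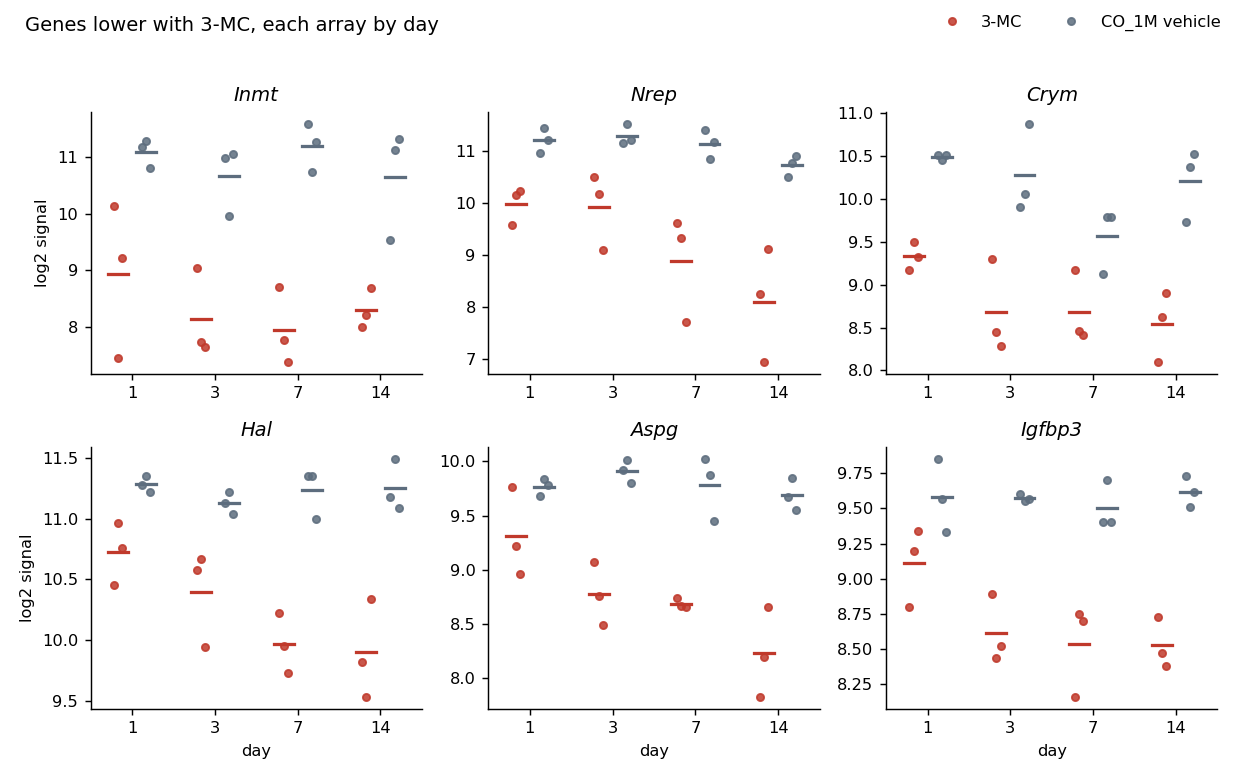
Log2 signal on each array by day for 6 genes lower with 3-MC, 3-MC in red and CO_1M vehicle in grey, with a bar at each mean of 3. Inmt reads 8.0, 8.2 and 8.68 with 3-MC at day 14, against 9.53, 11.12 and 11.31 with vehicle; the vertical axes differ.

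Nrep, a small protein known from neuronal regeneration, was called lower at days 7 and 14, with 8.26, 6.95 and 9.11 on the 3-MC arrays of day 14, against 10.49, 10.77 and 10.89 on the vehicle arrays. Its changes were -1.22, -1.36, -2.25 and -2.61. Crym, a thyroid hormone-binding protein of the cytosol, had changes of -1.16, -1.59, -0.89 and -1.66, and its call of day 1 was lost in each of the 6 fits that left out 1 array. Akr1c1, an aldo-keto reductase of steroids, was among the few genes with a large fall at the first day. It read 7.0, 7.45 and 7.38 with 3-MC at day 1, against 9.62, 9.21 and 9.38 with vehicle, and its changes were -2.12, -1.08, -1.37 and -1.42. AKR1C3l1, a related reductase, was called at day 1 alone, with a change of -1.30 at day 1 and of -0.27 at day 14; its call was lost without the first 3-MC array. Near-identical copies of this family can share probes. Slco1a4 read 10.16, 10.3 and 9.83 with 3-MC at day 14, against 11.71, 12.16 and 12.15 with vehicle, with changes of -0.86, -0.17, -1.5 and -1.91. At day 3 its groups overlapped, and its call of day 1 was lost without the first or second 3-MC array or the first or second vehicle array. Igfbp3, which carries insulin-like growth factors in plasma, had changes of -0.47, -0.95, -0.96 and -1.09, and Il33, an alarmin of endothelial and stromal cells, -0.51, -0.72, -0.95 and -1.07. Another probe set of Igfbp3 had -0.20, -0.52, -0.79 and -0.55 and was called at day 7 alone. Another probe set of Il33 had -0.37, -0.54, -0.62 and -0.44 and was called on no day. The call of Akr1c1 was lost at day 7 without the first 3-MC array and at day 14 without the second vehicle array, that of Igfbp3 at day 3 without the second 3-MC array and that of Il33 at day 14 without the first 3-MC array. From the 24 arrays alone, the calls of day 1 were lost for Inmt and Crym, and for Slco1a4 (adjusted p = 0.125).

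Of 31 measured genes of amino acid and urea metabolism, 2 were lower at day 1, 4 at day 3, 7 at day 7 and 4 at day 14, and none was higher. The medians were -0.26, -0.18, -0.37 and -0.23, beside 0.01, -0.00, -0.01 and -0.00 over all genes. Over all days the mean level of the list lay between 11.22 and 11.73 on the 3-MC arrays and between 11.65 and 11.93 on the vehicle arrays. Within a day, the 3-MC arrays all lay below the vehicle arrays at days 1, 3 and 7, and the groups overlapped at day 14. Hal, histidine ammonia-lyase, read 9.82, 9.53 and 10.34 with 3-MC at day 14, against 11.18, 11.49 and 11.09 with vehicle, and its changes were -0.56, -0.73, -1.27 and -1.36. Aass, the first enzyme of lysine breakdown, had changes of -0.42, -0.87, -0.77 and -1.17, and Gls2, the liver glutaminase, -0.52, -0.67, -0.88 and -0.88. Sds, serine dehydratase, was called at day 7 alone, with 7.59, 7.54 and 8.62 on the 3-MC arrays, against 10.18, 9.91 and 9.0 on the vehicle arrays, and lost the call without the first vehicle array. Hal at day 3 lost it without the third 3-MC or any vehicle array, Gls2 at day 3 without the third 3-MC or the first vehicle array and Aass at day 7 without the first 3-MC or the first vehicle array. Tat, tyrosine aminotransferase, was not called, with changes of 0.38, 0.15, 0.44 and 0.27. The count of 7 at day 7 was 3 without the first vehicle array, that of 4 at day 3 was 1 without the third 3-MC array, and that of 2 at day 1 was 0 without the second 3-MC array. From the 24 arrays alone none was called at days 1 and 3, 4 were lower at day 7 and 3 at day 14. Outside the list, Aspg, an asparaginase, had changes of -0.45, -1.14, -1.09 and -1.46.

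Of 27 measured genes of glucose metabolism, none was called at days 1 and 3, 1 was lower at day 7 and 5 were lower at day 14, with a median of -0.24 at day 14. The 5 were Pc, the first enzyme of gluconeogenesis from pyruvate, Slc2a2, the main glucose transporter of hepatocytes, Slc37a4, which carries glucose 6-phosphate into the endoplasmic reticulum, and the glycogen enzymes Gys2 and Pygl. Slc2a2 read 11.04, 10.72 and 10.83 with 3-MC at day 14, against 11.95, 11.77 and 11.49 with vehicle, a change of -0.87 that was kept in each fit that left out 1 array. The others had changes of -0.60 to -0.63, close to the limit for a call, and without the second 3-MC array 2 genes of the list were called. Of 23 measured targets of the drug receptors CAR and PXR, 1 was higher and 4 were lower at day 14, namely Cyp2a1 (0.92) higher and Cyp3a9 (-1.56), Cyp3a18 (-0.61), Alas1 (-1.04) and Slco1a4 lower. Alas1, the rate-limiting enzyme of haem synthesis, read 10.03, 10.48 and 9.71 with 3-MC, against 11.19, 11.11 and 11.04 with vehicle. Alas1 and Cyp3a9 each lost the call in 4 of 6 fits that left out 1 array and Cyp3a18 in 3. Without the second vehicle array 1 gene of the list was called lower.

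Of 18 other measured cytochrome P450 genes, 2 were lower at day 7, Cyp17a1 (-1.03) and Cyp2j3 (-0.66), and none was called on another day. These calls were lost in 3 and 5 of 6 fits that left out 1 array. The medians of this list were -0.30, -0.03, -0.18 and -0.14 on the 4 days. Its mean level at day 1 was 9.735, 9.625 and 9.79 with 3-MC, all below the 9.943, 9.967 and 9.986 with vehicle. The 3-MC arrays also lay below all vehicle arrays at days 7 and 14, and the groups overlapped at day 3. Of 25 symbols of glucuronidation and sulfation, 15 were measured, of which 1 was lower at day 7 and none was called on the other days. Ugt1a6 and Ugt1a7c, conjugating enzymes of the AHR battery, were not measured, so these counts do not bear on them. The lists of bile acid genes (21 measured, 2 lower at days 7 and 14), PPARA targets (38 measured, 2 higher and 1 lower at day 14) and fatty acid synthesis (22 measured, 1 higher and 1 lower at day 14) held few calls, and that of cholesterol synthesis (20 measured) none. In mean level, the 3-MC arrays lay below all vehicle arrays for bile acid genes at days 7 and 14 (medians -0.27 and -0.12) and for PPARA targets at day 1. For cholesterol synthesis they lay above all vehicle arrays at day 7. On the other days the groups of these lists overlapped.

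Of 30 measured genes that respond to unfolded proteins or to amino acid shortage, 2 were higher at day 1, none at day 3, 2 at day 7 and 5 at day 14. The 5 were the amino acid response genes Asns, Atf4, Trib3, Psat1 and Slc3a2, and they were highest on the second 3-MC array of day 14. Asns, asparagine synthetase, read 7.23, 9.02 and 7.0 with 3-MC, against 6.22, 6.43 and 6.39 with vehicle, and Psat1, of serine synthesis, 7.09, 8.37 and 6.74 with 3-MC, against 6.7, 6.52 and 6.76 with vehicle. Fgf21, a liver hormone of the same response, read 7.13, 9.45 and 7.22 with 3-MC. Without that array 2 of the list were called, and Asns and Slc3a2 (1.03), a subunit of amino acid transporters, kept their calls in each fit. Chaperones of the endoplasmic reticulum, which belong to the other arm of the response, were highest on the second 3-MC array of day 1, where Creld2 read 11.45, against 10.35 and 10.36 on the other 3-MC arrays and 9.98, 9.59 and 9.96 with vehicle. Creld2 was called at day 1 (0.88) and lost the call without that array or without any of the vehicle arrays. The mean level of the whole list at day 1 was 9.793, 9.925 and 9.869 with 3-MC, all above the 9.6, 9.555 and 9.583 with vehicle. Its median change at day 1 was 0.24, beside 0.01 over all genes. The 3-MC arrays also lay above the vehicle arrays in this mean level at day 7, and the groups overlapped at days 3 and 14.

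3-MC is a mutagen after metabolic activation, and targets of the DNA damage factor p53 were examined for that reason. Of 15 measured, 1 was higher (Ddb2, a damage-recognition protein, 0.67) and 1 lower (Phlda3, -0.94, lost without the first or the third 3-MC or the third vehicle array) at day 3, none was called at days 1 and 7, and 2 were higher at day 14. Another probe set of Ddb2 ran the other way, with -0.26, -0.20, -0.31 and -0.38 on the 4 days, and was not called. Ccng1, cyclin G1, read 8.8, 9.05 and 9.04 with 3-MC at day 14, against 8.27, 8.3 and 8.16 with vehicle, a change of 0.72 that was kept in each fit that left out 1 array. Gadd45a, a stress-response protein of DNA repair, read 9.32, 9.68 and 8.26 with 3-MC, against 8.01, 7.76 and 7.31 with vehicle, a change of 1.40 that was lost in 5 of 6 such fits. Cdkn1a, the p53-driven inhibitor of the cell cycle, was not called, with changes of -0.73, -0.39, -0.14 and 0.28. The mean level of the p53 list was 8.254, 8.328 and 8.139 with 3-MC at day 14, all above the 7.917, 8.056 and 7.964 with vehicle. At day 1 it was 7.956, 7.923 and 7.993 with 3-MC, all below the 8.046, 8.063 and 8.125 with vehicle. At days 3 and 7 the groups overlapped. None of 40 measured genes of the cell cycle and replication, and none of 25 interferon response genes, was called on any day. Over all genes at most 0.874% were called in 1 direction on a day.

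Of 26 measured acute phase genes, 1 was higher at day 3 (Lcn2), 2 at day 7 (Cebpb, and Orm1, which was lost without the second or the third 3-MC or the first vehicle array), and at day 14 1 was higher (Orm1, 0.77) and 1 lower (A2m), the last lost without the first vehicle array of day 14. Lcn2 read 7.37, 11.34 and 10.87 with 3-MC at day 3, against 8.18, 7.54 and 6.98 with vehicle, and the call was lost without the second or the third 3-MC array or without the third vehicle array. Pla2g2a, a secreted phospholipase of inflammation, read 10.28, 10.44 and 12.29 with 3-MC at day 3, against 9.52, 9.34 and 7.46 with vehicle, a change of 2.23; from the 24 arrays alone its adjusted p was 0.18. Of 15 measured macrophage and Kupffer cell markers, 3 were higher at day 7 and none on the other days. Gpnmb, a lysosomal glycoprotein of activated macrophages, read 10.38, 9.0 and 8.89 with 3-MC at day 7, against 7.94, 7.72 and 7.39 with vehicle, and 8.32, 9.83 and 8.26 with 3-MC at day 14, against 9.05, 8.54 and 7.52 with vehicle. The others were Spp1 (0.90) and Lgals3 (0.90), both highest on the first 3-MC array of day 7, without which Gpnmb alone was called. At day 7 the mean level of the macrophage markers was 9.952, 9.627 and 9.578 with 3-MC. All lay above the 9.277, 9.496 and 9.138 with vehicle, and the median change of the list was 0.34. On the other days the groups overlapped in this mean level. Over all days it lay between 8.88 and 9.95 on the 3-MC arrays and between 9.0 and 9.70 on the vehicle arrays.

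The 14 measured markers of hepatocyte identity, which check the tissue, held no call on any day, with medians of -0.09, -0.11, -0.18 and -0.13, below those of all genes, and had a mean level between 11.41 and 11.83 on the 3-MC arrays and between 11.61 and 12.05 on the vehicle arrays. None of 10 endothelial, 14 lymphocyte or 13 pancreas markers was called on any day, and the lymphocyte and pancreas markers had mean levels of at most 6.43 and 6.76 on the 3-MC arrays and 6.38 and 6.78 on the vehicle arrays. Of 25 stellate cell and fibroblast markers, 1 was higher (Timp1, 1.15, lost without the third 3-MC or the first or the third vehicle array) and 1 lower (Igfbp3) at day 3 and Igfbp3 alone was called at days 7 and 14. Of 6 red cell genes, 1 was lower at day 7 (Hba-a3, a haemoglobin chain, -0.95). The medians of that list were 0.00, -0.43, -0.56 and -0.30 on the 4 days. Its mean level was 8.55, 8.89 and 8.48 on the 3-MC arrays of day 7, against 9.51, 9.07 and 9.0 with vehicle, and 8.76, 8.46 and 8.55 on those of day 14, against 8.91, 8.82 and 8.92 with vehicle, so the groups did not overlap on these days. The part of blood content in the other changes was not tested. Of 16 male-biased liver genes, 1 was lower at day 14 (Hsd11b1, -0.79), and of 13 female-biased genes, 1 was higher (Cyp2a1) and 1 lower (Hao2, -1.08, lost in 4 of 6 fits that left out 1 array) at that day. None of 15 circadian clock genes was called. Lists of 12 iron and haem, 13 growth hormone and IGF, 14 bile duct, 16 adipose and muscle, 23 immediate early and 25 retinoid genes, and 7 genes of one-carbon and NAD metabolism, held at most 1 call on a day. Since at most 0.874% of all genes were called in 1 direction on a day, a list without a call does not show that its genes were unchanged. The part of cell composition in the changes above was not tested.

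Other carcinogens of the series were set beside 3-MC to see which changes were stronger with it. Methylendianiline (MDA, 50 mg/kg), an aromatic amine, and 2-acetylaminofluorene (2-AAF, 1.2 mg/kg), an arylamide, have 12 arrays each on the same 4 days, and 2-nitrofluorene (2-NF, 44 mg/kg) is a nitrated polycyclic compound with 6 arrays, at days 3 and 7. Each was taken against its own vehicle, which was corn oil for MDA and 2-NF and carboxymethylcellulose for 2-AAF, and the means over the shared days were compared. Dose and the block of the study differ together with the compound, for 2-AAF the vehicle as well, and cannot be told apart from it. The difference in change was called for 208 probe sets against MDA (1.31%), 181 against 2-AAF (1.14%) and 223 against 2-NF (1.41%). All 6 battery genes were higher with 3-MC than with MDA or 2-AAF, and 4 of 6 than with 2-NF, with median differences of 3.02, 3.64 and 3.11, beside -0.00 over all genes in each comparison. Over all genes, 0.768% were higher and 0.692% lower against MDA, 0.663% and 0.596% against 2-AAF, and 0.72% and 0.816% against 2-NF.

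**Figure D5:**
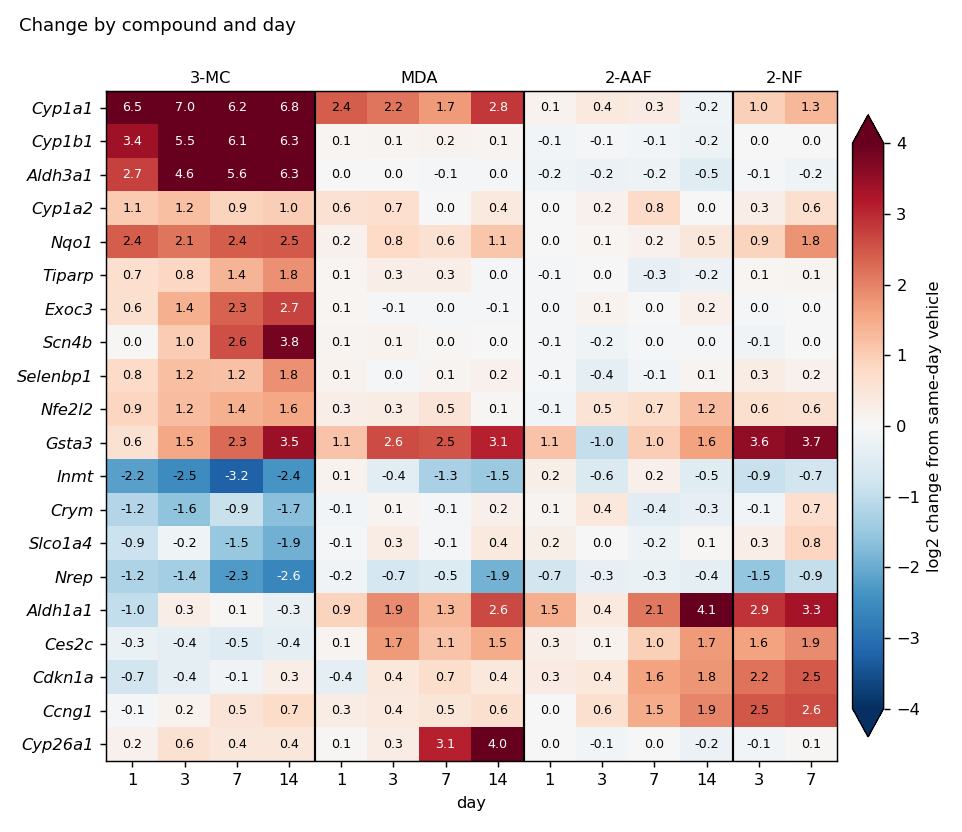
Log2 change from same-day vehicle for 20 genes (rows) at each day of 3-MC, MDA, 2-AAF and 2-NF (columns), with red for higher and blue for lower; colours end at 4 in either direction and the numbers give the change. Cyp1b1 reaches 6.3 at day 14 of 3-MC and stays between -0.2 and 0.2 with the other compounds, while Gsta3 reaches 3.7 with 2-NF at day 7.

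Cyp1a1 was also higher with MDA, which raised it by 2.43, 2.15, 1.70 and 2.84 on the 4 days, all called, but the mean change with 3-MC was larger by 4.36 ± 0.32 (adjusted p = 7.1e-30). With 2-AAF its changes were 0.15, 0.38, 0.31 and -0.18 and with 2-NF 0.96 and 1.33, none called. Cyp1b1 was higher with 3-MC by 5.22 against MDA, 5.45 against 2-AAF and 5.82 against 2-NF, and Aldh3a1 by 4.86, 5.10 and 5.22. For the late genes the difference against MDA was 1.8 ± 0.06 for Scn4b and 1.8 ± 0.06 for Exoc3, and neither was called with MDA, 2-AAF or 2-NF on any day. Nqo1 differed against MDA (1.69) and 2-AAF (2.19), but not beyond the error against 2-NF (0.95 ± 0.50, adjusted p = 0.36), which raised it by 1.79 at day 7. Cyp1a2 did not pass the test against 2-NF either (0.59 ± 0.26, adjusted p = 0.21). Gsta3 was called with other compounds too. 2-NF raised it by 3.55 and 3.70 at days 3 and 7 and MDA by up to 3.11, and the mean change with 3-MC minus that with 2-NF was -1.73 (adjusted p = 0.024).

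Among lower genes, the change with 3-MC minus that with the other compound was for Inmt -1.8 ± 0.36 against MDA, -2.41 against 2-AAF and -2.07 against 2-NF, for Crym -1.36, -1.27 and -1.53, and for Slco1a4 -1.24, -1.13 and -1.40. Nrep differed from MDA (-1.04) and 2-AAF (-1.44), and its difference from 2-NF was -0.56 ± 0.43 (adjusted p = 0.59). Several genes that separated the compounds were raised by the others. Aldh1a1, a retinal dehydrogenase, had a mean change of -0.24 with 3-MC that was not called, with differences of -1.93, -2.25 and -2.93, and 2-AAF raised it by 4.09 at day 14. Ces2c, a carboxylesterase, had differences of -1.5, -1.17 and -2.20. Of the 15 p53 targets, 1 was higher and 5 were lower with 3-MC than with 2-AAF, and 2 were higher and 5 lower than with 2-NF, where the median difference was -0.45. Ccng1 had changes of 0.15 and 0.50 with 3-MC at days 3 and 7, against 2.48 and 2.62 with 2-NF, and Cdkn1a of -0.39 and -0.14 with 3-MC, against 2.17 and 2.46 with 2-NF. MDA alone of these compounds raised Cyp26a1, which degrades retinoic acid, by 3.12 at day 7 and 4.03 at day 14, and the difference of 3-MC from it was -1.46.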

How the data were processed

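Liver RNA of single rats was hybridised to Affymetrix RAE230A arrays, and the authors computed the deposited log2 values with RMA (background correction, normalization between arrays and probe set summary), with no pooling of animals. These values were used unchanged. The number of arrays, 3 per group, limits the precision.

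limma 3.58.1 in R 4.3.3 fitted 1 mean for each of 136 groups over all 421 arrays (285 residual degrees of freedom), and contrasts took 3-MC minus vehicle of the same day, or differences of such changes. Calls needed an adjusted p below 0.05 over 15866 probe sets and at least 1.5-fold. The coding of the contrasts was checked on simulated data, where 2-fold changes at day 14 were recovered for 99 of 100 probe sets. The simulated noise was normal, with the fitted spread of each probe set and no arrays that stood apart. This recovery therefore does not give the power of the calls in the real data. A gene stood for its probe set with 1 symbol and the highest mean over all arrays. The platform annotation gave 12783 probe sets 1 symbol, 312 several and 2771 none, and left 10411 genes. Symbols were matched to RefSeq for 12748 of the probe sets.

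Genes were named by rule: per day the 10 largest rises and falls among called genes without overlap between treated and vehicle arrays, the 10 highest and lowest for each time contrast, and the 5 highest and lowest for each other compound, besides list members. Those listed for all 4 days, and genes given beside a list or an array that stood apart, were named after their values were seen. The compounds, gene lists and rules were chosen with earlier results of these data known. Alternatives were a fit of the 24 arrays alone, quantile normalization, a filter on low means, moderation with trend and robust options, all vehicle days pooled, a replicate block and leaving out each array. For a contrast with another compound, the fit of the 24 arrays also took that compound's arrays and their vehicle arrays. The same replicate number occurs in treated and vehicle groups, but only 5 of 12 pairs had a correlation over 0.1 and no label ties them, so it was not treated as a pairing.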

Additional observations from a re-analysis of the deposited data

Results flagged for a closer look

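The effects of 3-MC at different days were compared by a test of the difference itself in limma, and 13 genes by the late minus early contrast and 20 by the day 14 minus day 1 contrast are given here because that test found them to differ. The late minus early difference was 2.68 for Scn4b, 2.32 for Aldh3a1, 1.77 for Cyp1b1, 1.5 for Exoc3, 1.35 for Tmem150c, 0.84 for Tiparp, 0.72 for Pla2g12a, a secreted phospholipase, 0.68 for Cyfip2, of the actin regulatory complex, 0.61 for Rnd2 and 0.60 for Neurl3, a ubiquitin ligase. It was -2.35 for A2m, -1.19 for Slco1a4 and -0.60 for Slc2a2. With the 24 arrays alone the call was lost for Tiparp, Pla2g12a, Cyfip2, Rnd2, Neurl3, A2m and Slc2a2. Without 3-MC array 2 of day 1, vehicle array 1 of day 14 or vehicle array 3 of day 1 it was lost for A2m, and without 3-MC array 2 of day 14 or array 3 of day 7 for Cyfip2. Pla2g12a lost it in 4 fits that left out 1 array, Rnd2 in 10, Slc2a2 in 13 and Neurl3 in 18 of 24.

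Day 14 minus day 1 was 3.79 for Scn4b, 3.59 for Aldh3a1, 2.90 for Cyp1b1, 2.87 for Gsta3, 2.08 for Exoc3, 1.74 for Tmem150c, 1.16 for Tiparp, 1.07 for Selenbp1, 1.03 for Pla2g12a and 0.95 for Syngr1, a synaptic vesicle protein. On the negative side it was -3.87 for A2m, -1.60 for Creld2, -1.43 for Pnpla3, a lipid droplet acyltransferase, -1.13 for Ero1b, an oxidase of the endoplasmic reticulum, -1.07 for Slc35b1, -1.06 for Ccnl2, -1.01 for Aspg, -0.96 for Manf, -0.93 for Nucb2 and -0.84 for Hspa5. Creld2 at day 1 read 10.35, 11.45 and 10.36 with 3-MC, against 9.98, 9.59 and 9.96 with vehicle, and at day 14 9.22, 9.5 and 9.27 with 3-MC, against 10.36, 9.89 and 9.91 with vehicle. Pnpla3 at day 14 read 5.11, 5.02 and 4.86 with 3-MC, against 8.03, 4.76 and 4.71 with vehicle. Leaving out 3-MC array 2 of day 1 and vehicle array 1 of day 14 together gave 16 called probe sets, all with a more positive change at day 14 and none with a more negative one, and 841 at an unadjusted p under 0.05. Creld2 and A2m lost the call without 3-MC array 2 of day 1 alone, and A2m and Pnpla3 without vehicle array 1 of day 14 alone. The call was also lost without 3-MC array 2 of day 1 for Ero1b, Ccnl2, Aspg, Manf, Nucb2 and Hspa5, while Slc35b1 kept it in each fit that left out 1 array. Tiparp lost it without 3-MC array 2 of day 14, Pla2g12a without array 3 of day 14 or vehicle array 2 of day 1, and Gsta3 in 9 and Selenbp1 in 6 of 12 fits. From the 24 arrays alone Scn4b, Aldh3a1, Cyp1b1, Exoc3, Tmem150c and Syngr1 were called. Another probe set of Slc35b1 had a change of 0.05 at day 1 and of -0.16 at day 14. For Ero1b another probe set had 0.07 and -0.01, and for Syngr1 0.07 and 0.29. These further probe sets were called on no day.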

How the results depend on the processing

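Among 143 values of named genes, each with its contrast, 143 kept the call and none changed sign under quantile normalization and under moderation with trend and robust options. All 80 that could be computed with the vehicle arrays of all days pooled kept it, as did 141 of 141 with a mean signal of at least 6. The fit of the 24 arrays, joined by the other compound's arrays and their vehicle for contrasts with that compound, lost 37. In at least 1 fit that left out 1 array, 48 were lost. No named value changed sign in any setting. The fit of the 24 arrays alone called 29 probe sets at day 1, of which 28 were among the 59, 11 for late minus early, 15 for day 14 minus day 1, 0 for day 3 minus day 1 (628 at an unadjusted p under 0.05, against 9 called in limma with all arrays), 1 for day 7 minus day 3 and 2 for day 14 minus day 7. Pooling the vehicle days called 108 at day 1. A mean of at least 6 called 1 for day 14 minus day 7. Leaving out both arrays that stood apart, chosen after the data were seen, called 16 for day 14 minus day 1. Without 1 array, counts ran over 39 to 80 at day 1, 25 to 63 for day 14 minus day 1, 4 to 13 for day 7 minus day 3 and 2 to 7 for day 14 minus day 7. The lowest came without vehicle array 2 of day 1 and without 3-MC arrays 2 of day 1, 3 of day 7 and 2 of day 14. The causes were not tested. With the replicate number as a block, 59, 75, 184 and 265 probe sets were called on the 4 days, 22 for late minus early and 54 for day 14 minus day 1. Arrays of equal number had a mean correlation of 0.0596 in their deviations, over 0.1 in 5 of 12 pairs. At day 14 all 3 pairs were over 0.1 (0.106, 0.158 and 0.145) and each 3-MC array correlated best with the vehicle array of its number, a hint from the data that no label bears on. The block lost 2 calls, of the values Neurl3, late minus early (adjusted p = 0.0661) and RT1-CE10, 3-MC minus 2-NF (adjusted p = 0.0588). Values near the top of the scale may be compressed, which was not tested, and a p above the threshold with 3 arrays a group does not show that values did not differ.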

Other observations

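Some genes outside the lists moved on several days. B4galnt1, a ganglioside synthase, had changes of -0.68 at day 1, -1.18 at day 7 and -1.12 at day 14. Hacl1, of phytanic acid breakdown, had -1.41 at day 7 and -1.38 at day 14, and Nr3c1, the glucocorticoid receptor, -0.77 at day 3 and -0.74 at day 7. Another probe set of Nr3c1 was called on no day, with -0.29 at day 3 and -0.29 at day 7. Abcc9, a subunit of potassium channels, had -1.48 at day 14, while 2 further probe sets of the gene had -0.13 and -0.49. Fabp4, a fatty acid-binding protein of adipocytes and macrophages, had 1.02 at day 7, and Rxrg, a retinoid receptor, 0.75 at day 14. Without 1 array the call was lost in 4 of 6 fits for Abcc9, in 4 for B4galnt1 at day 1, in 2 for Hacl1 at day 14, in 4 and 3 for Nr3c1 and in 3 for Fabp4, whose change was 0.40 in the lowest of them.

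Of 15866 probe sets, 337 were called on at least 1 day, of which 52 had no single symbol, 12 of them because several were listed.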
